A study of Mus musculus with 6 samples.

Results

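Kinesins are motor proteins that walk along microtubules, and the genes studied here are the kinesin heavy chains and kinesin light chains of the mouse heart ventricle. Members were the rows of the deposited count table whose symbol is Kif with a number and an optional letter, Kifc with a number, or Klc with a number. These rules found 36 genes among the 14495 of the table. By their known roles 12 are mitotic motors, 16 are cargo-transport motors or their light chains, and 8 have other roles at microtubule ends, cilia or signalling scaffolds. Of kinesin genes outside these rules only Cenpe, Kifc5b and Kif28 are given, apart from the 36.

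Messenger RNA was sequenced from heart ventricles at postnatal day 1 (P1) or postnatal day 14 (P14). All animals were male and of the C57BL/6 strain, with no treatment named. Each age had 3 libraries, each from a pool of 3 hearts, 9 hearts per age. Atria were removed and the septum was kept. The labels also name the tissue as left ventricle, and which of these descriptions applies is not resolved here.

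Mitotic kinesins build the bipolar spindle, move and align chromosomes, shorten microtubule ends and organise the midzone where the cell divides. Transport kinesins carry vesicles, organelles, mitochondria and messenger RNA, either as heavy chains that bind cargo themselves or through light chains and adaptors. Most heart muscle cells of the mouse leave the cell cycle during the first weeks after birth, so both functions are of interest over this period.

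Levels are in CPM, read counts relative to library size after trimmed mean of M-values (TMM) scaling. Library totals ran from 5916557 to 17353933 counts at P1 and from 9104230 to 15725993 at P14. Genes are said to have risen or fallen at P14 where edgeR's quasi-likelihood test over 14301 genes gave a Benjamini-Hochberg adjusted p below 0.05. Of those genes 43.8% passed, 21.8% as risen and 22.0% as fallen. Heart muscle markers were abundant in all libraries, with summed levels of the 5 genes between 32940 and 48490 CPM. The median log2 fold change of all tested genes was −0.01 with TMM and −0.47 with scaling by library totals alone, so directions are relative to that choice. P1 replicate 2 had the lowest P1 values of several members with GC-rich transcripts and the highest of several GC-poor ones. This is remarked on for only some of the genes it touches. Use of strand in counting was not given in the sources used here, and reads of genes that overlap on opposite strands may be mixed. Nothing in the labels says more of the libraries' independence than the separate pools. The edgeR p-values set the age difference against the spread between these 3 pools per age, with the spread moderated over all tested genes.

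The make-up of the family differed between the ages far more than its sum. Summed over the 36 genes, kinesin transcripts had 885, 882 and 923 CPM in P1 replicates 1 to 3 and 795, 846 and 871 CPM at P14. All P14 sums lay below the P1 sums, and with totals alone the gap was wider, 926 to 1128 at P1 against 700 to 728 at P14. The shares below do not depend on that scaling. Mitotic kinesins held 25.5%, 25.3% and 27.7% of the family's counts at P1 and 5.22%, 2.86% and 3.68% at P14. Their share was thus 26.2% ± 1.32 (SD, n = 3) at P1 and 3.92% ± 1.20 at P14, and the ages did not overlap. Transport kinesins went from 68.1% ± 1.03 to 90.1% ± 0.598 of the counts, and genes of other roles from 5.73% ± 0.288 to 5.97% ± 0.623. Divided by exon length, the mitotic share was 30.5% ± 1.89 and 4.78% ± 1.30.

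**Figure D1:**
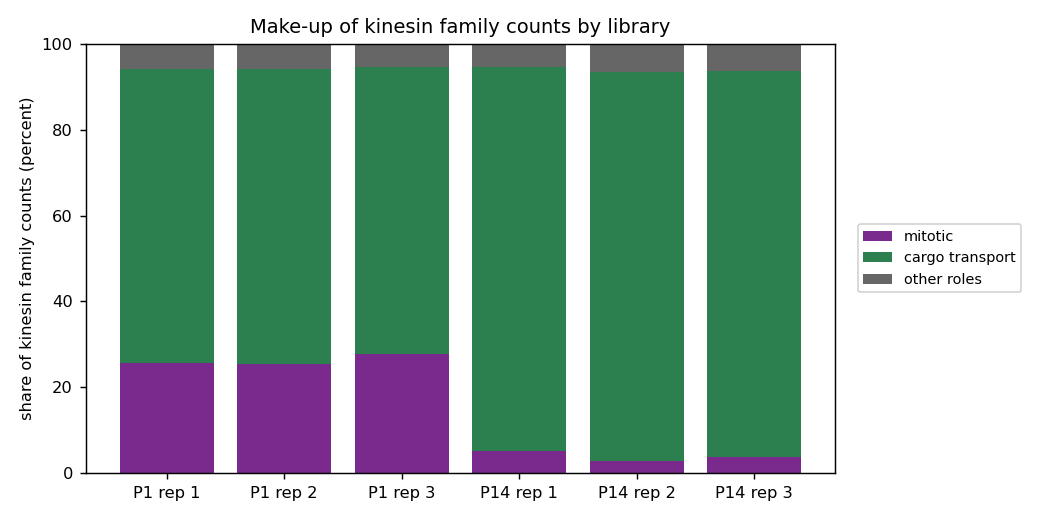
Share of all kinesin family counts taken by mitotic, cargo-transport and other kinesins, in percent, in each of the 6 libraries (bars stacked to 100%). The mitotic part lies between 25.3% and 27.7% in the P1 libraries and between 2.86% and 5.22% in the P14 libraries.

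All 12 mitotic kinesins of the table fell, against 22.0% of all tested genes. On the log2 scale the falls ran from −3.45 to −2.10, the median being −2.91, and 5 of them fell at least 8-fold, as did 1.71% of all tested genes. That number was 3 without P14 replicate 2 and 9 with totals alone. In each of the 12, the 3 P14 values lay below the 3 P1 values, which was so for 27.5% of all tested genes. Over the whole family the ages did not overlap for 26 of 36 genes, against 54.8% of all tested genes. The 12 calls held under each alternative in which the genes were tested, leaving out each library included. These statements rest on the role assignment. Kif2a, which also acts at the spindle, was placed among other roles. Its fall was smaller (log2 −0.58) and its call was kept in 7 of 16 alternatives. In bulk tissue, fewer dividing cells and less of these transcripts per cell cannot be told apart.

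Kif11, the plus-end motor that pushes the spindle poles apart (ENSMUSG00000012443; chromosome 19, 37376403 to 37421859 in GRCm38), had 21.8, 27.3 and 26.8 CPM in the P1 libraries and 2.46, 1.99 and 2.45 CPM in the P14 libraries. The 3 libraries of each age lay close together and the ages were far apart. The fall was 10.8-fold (log2 −3.44 ± 0.26, SE; edgeR adjusted p = 2.87e-07). Kif15, a second motor of bipolar spindles (ENSMUSG00000036768; chromosome 9, 122951046 to 123018733), went from 6.28 ± 0.829 to 0.978 ± 0.163 CPM (mean ± SD, n = 3), a log2 fold change of −2.70 ± 0.34. Kifc1, a minus-end motor that gathers microtubules at the poles (ENSMUSG00000079553; chromosome 17, 33875659 to 33890661), had 8.70, 4.37 and 10.9 CPM at P1 and 1.48, 0.266 and 1.29 CPM at P14. Its second libraries were the lowest at both ages, and the log2 fold change was −2.86 ± 0.48. Only 48.6% of the 36-base windows of Kifc1 were unique among annotated transcripts, and 48.7% were shared with its near copy Kifc5b, so reads of this pair cannot be assigned with certainty. Kifc5b itself had 13 to 44 counts per library at P1 and 1 to 3 at P14.

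Among motors that act on chromosomes, Kif4, which works on chromosome arms and the spindle midzone (ENSMUSG00000034311; chromosome X, 100625737 to 100727214), had 29.0, 38.2 and 31.3 CPM at P1 and 4.86, 1.59 and 2.83 CPM at P14. It fell 10.1-fold (log2 −3.34 ± 0.33), and 15.1% of its exon bases overlap Pdzd11 on the opposite strand, a gene that fell with a log2 fold change of −0.69. Kif22, the chromokinesin that pushes chromosome arms outward (ENSMUSG00000030677; chromosome 7, 127027729 to 127042471), had 32.2, 21.3 and 28.8 CPM at P1 and 5.49, 2.52 and 2.45 CPM at P14. P14 replicate 1 was the highest P14 library for Kif11, Kif4, Kif22, Kif23, Kif2c, Kif18b, Kif20a and Kifc1, yet below every P1 library in each. Kif22 fell 7.52-fold (log2 −2.91 ± 0.32).

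Kif2c, Kif18a and Kif18b shorten or cap microtubule plus ends and correct or align chromosome attachments. Kif2c (ENSMUSG00000028678; chromosome 4, 117159639 to 117182639) had 13.2, 11.2 and 14.7 CPM at P1 and 1.83, 0.266 and 1.16 CPM at P14, the last 3 from 26, 2 and 9 counts. Its log2 fold change was −3.45 ± 0.40 (edgeR adjusted p = 1.58e-05), much like that of Kif11, and −4.15 without P14 replicate 1. Kif18b (ENSMUSG00000051378; chromosome 11, 102905529 to 102925124) had 13.0, 9.04 and 18.5 CPM at P1 and 2.25, 1.33 and 1.03 CPM at P14, and fell 8.21-fold. Kif18a (ENSMUSG00000027115; chromosome 2, 109280738 to 109341747) was the scarcest mitotic member, with 39, 48 and 15 counts at P1 and 8, 1 and 7 at P14. Its values were 1.80, 2.80 and 2.53 CPM against 0.563, 0.133 and 0.901 CPM, and its log2 fold change of −2.10 ± 0.50 was the smallest fall of the group (edgeR adjusted p = 0.00372). With so few reads at P14 the size of that fall is loosely set.

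The motors of cell division itself fell as well. Kif23, the motor of centralspindlin at the midbody (ENSMUSG00000032254; chromosome 9, 61915905 to 61946774), had 27.4, 25.2 and 27.9 CPM at P1 and 4.08, 1.06 and 3.86 CPM at P14, a fall of 8.64-fold. Kif20a, which carries the chromosomal passenger complex to the midzone (ENSMUSG00000003779; chromosome 18), was the most abundant mitotic member, with 63.5, 63.5 and 79.1 CPM at P1 and 16.1, 12.9 and 12.5 CPM at P14. It fell 4.93-fold (log2 −2.30 ± 0.21; edgeR adjusted p = 1.51e-06), less than 10 of the other 11 mitotic members. Of its exon bases 29.3% overlap Cdc23 on the opposite strand, and Cdc23 had 75.5 ± 8.27 CPM at P1 and 28.1 ± 6.68 at P14. The part of such reads in the values of Kif20a was not tested. Without Kif20a, the mitotic share of family counts was 20.0% ± 0.747 at P1 and 2.30% ± 0.953 at P14. Kif14, a cytokinesis motor that binds citron kinase, went from 5.34 ± 0.655 to 0.728 ± 0.374 CPM, and Kif20b, which acts at the end of cytokinesis, from 5.07 ± 2.55 to 1.00 ± 0.315 CPM. Kif14 fell with a log2 fold change of −2.91 ± 0.40 and Kif20b with −2.35 ± 0.43.

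**Figure D2:**
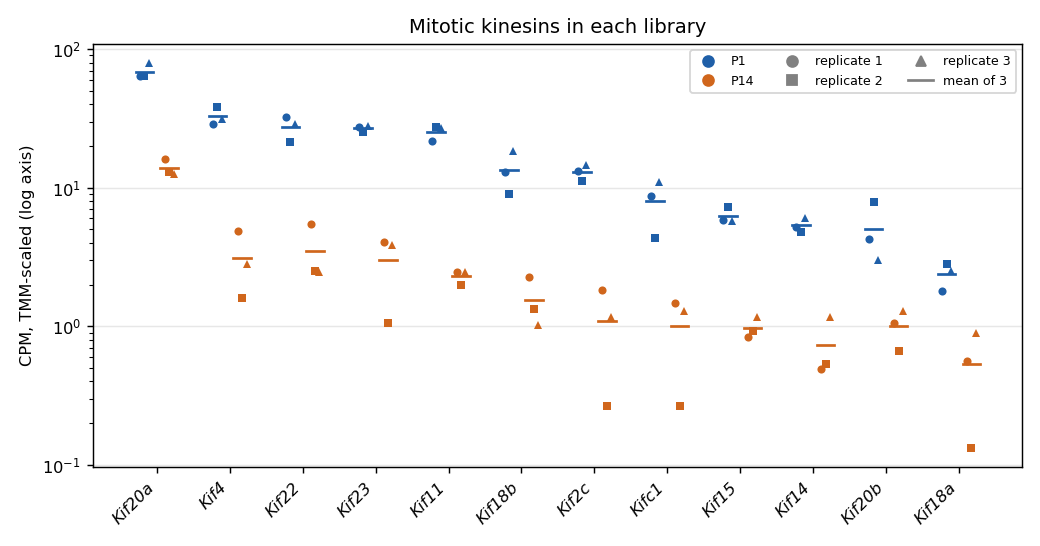
CPM of the 12 mitotic kinesins (log axis) in each library, P1 in blue and P14 in orange, with the replicate given by the marker and the mean of 3 libraries by a line. For each gene the 3 P14 points lie below the 3 P1 points, and Kif20a keeps the highest P14 level at 13.8 CPM.

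Because the mitotic members moved together, their promoters were read for motifs of cell cycle genes. Promoter windows of 300 bases, from 250 before to 50 after the start site, came from RefSeq (GRCm38.p6). They matched 29 of the 36 genes with 32 windows. No usable window was at hand for the mitotic Kif20a, the transport genes Kif5b, Klc2, Kif13b, Kifc2 and Kifc3, or Kif21b. The motif counts leave these genes out. The cell cycle homology region, a motif of genes expressed in late cell cycle, was searched as TTTGAA or TTCGAA and the CCAAT box as CCAAT, each on both strands and with no overlap between the motifs. The windows of 5 mitotic genes and of the transport genes Kif1c and Klc4 are shown from 120 bases before to 30 after the start site. They are read on the gene's strand, with both motifs in capitals. The 5 mitotic windows were picked from the 7 of 11 that hold both motifs, to show the spacing. They do not stand for all mitotic windows: those of Kif15, Kif18a, Kif20b and Kif2c hold no CCAAT.
Kif11, chr19:37376262-37376411, plus strand: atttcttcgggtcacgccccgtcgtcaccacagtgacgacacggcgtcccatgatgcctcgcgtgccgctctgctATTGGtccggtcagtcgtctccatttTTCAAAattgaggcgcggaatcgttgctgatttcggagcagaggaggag
Kif22, chr7:127042391-127042540, minus strand: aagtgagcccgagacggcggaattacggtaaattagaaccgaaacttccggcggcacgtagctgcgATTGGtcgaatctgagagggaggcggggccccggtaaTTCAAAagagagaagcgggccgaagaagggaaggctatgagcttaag
Kif23, chr9:61946770-61946919, minus strand: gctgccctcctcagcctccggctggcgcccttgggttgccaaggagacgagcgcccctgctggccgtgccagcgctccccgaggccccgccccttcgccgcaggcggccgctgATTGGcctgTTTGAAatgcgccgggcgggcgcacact
Kif18b, chr11:102925095-102925244, minus strand: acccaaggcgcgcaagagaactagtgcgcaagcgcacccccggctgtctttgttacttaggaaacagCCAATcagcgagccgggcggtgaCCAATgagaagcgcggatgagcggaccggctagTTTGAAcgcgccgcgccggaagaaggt
Kifc1, chr17:33890604-33890753, minus strand: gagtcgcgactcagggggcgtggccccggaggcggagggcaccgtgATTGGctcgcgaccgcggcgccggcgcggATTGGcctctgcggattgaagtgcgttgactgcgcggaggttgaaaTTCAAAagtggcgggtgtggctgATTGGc
Klc4, chr17:46646051-46646200, minus strand: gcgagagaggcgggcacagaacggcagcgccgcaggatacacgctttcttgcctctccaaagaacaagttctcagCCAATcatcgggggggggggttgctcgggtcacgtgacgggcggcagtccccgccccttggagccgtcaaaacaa
Kif1c, chr11:70700428-70700577, plus strand: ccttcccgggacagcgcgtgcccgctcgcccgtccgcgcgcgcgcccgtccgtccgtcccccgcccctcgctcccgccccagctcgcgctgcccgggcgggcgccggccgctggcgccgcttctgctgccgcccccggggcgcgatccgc

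In these lines ATTGG and TTCAAA are the motifs read on the opposite strand. In Kif11 the CCAAT box starts 45 bases and the cell cycle homology region 19 bases before the start site. Of the 11 mitotic windows 10 held the letters of the cell cycle homology region (90.9%), Kif18a being the exception, while 19.2% of all 32851 promoter windows held them. Within 30 bases of the start site they stood in 8 of the 11, against 3.45% of all windows. The same held for 0 of 13 transport windows and 2 of 8 windows of other roles. CCAAT stood in 7 of the 11 mitotic windows, 6 of the 13 transport windows, 3 of the 8 windows of other roles and 37.4% of all windows. The 13 transport windows came from 11 genes and the 8 of other roles from 7, as Kif1a, Kif1b and Kif2a had more than 1. Those of Kif1b overlap and hold the same CCAAT boxes, which are thus counted again. Both motifs together stood in 7 of 11 mitotic windows, 0 of 13 transport windows and 2 of 8 of other roles, against 7.52% of all. The E2F letters TTCCCGC or TTGGCGC stood in 2 of 11, 0 of 13 and 2 of 8, and in 6.81% of all. Of the 13 transport windows 1 held the cell cycle homology region, the second start site of Kif1a, and of the 8 windows of other roles 2 did, those of Kif24 and Kif26b. Among the mitotic windows, those of Kif2c, Kif14 and Kif4 lie wholly inside the annotated gene, so their positions are counted from a start site within it. Of the 32 windows, 25 had their last 30 bases in an annotated transcript of the gene. The motifs were chosen knowing that these genes fall, and a match of letters is a description of the window, not a site in use.

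Genes that work with the mitotic kinesins fell too. Of 22 partners and regulators 21 fell, against 22.0% of all tested genes, and the median of the 22 was −3.45 on the log2 scale. Hmmr, which helps to target spindle factors, fell from 23.9 ± 3.76 to 0.936 ± 0.599 CPM, the Kif23 partner Racgap1 from 88.5 ± 12.9 to 5.03 ± 2.08 CPM, and the mitotic kinase Cdk1 from 92.4 ± 4.70 to 5.89 ± 3.35 CPM. Prc1, which binds Kif4 at the midzone, had a log2 fold change of −3.46 ± 0.23, and Cenpe, a kinetochore kinesin whose symbol lies outside the naming rule, had −2.87 ± 0.29. The exception was the spindle pole protein Numa1, with 42.1 ± 10.5 CPM at P1 and 57.0 ± 7.65 at P14 (edgeR adjusted p = 0.125). All 4 proliferation markers (Mki67, Top2a, Ccnb1 and Cdk1) fell, from a summed 247 to 289 CPM per P1 library to 16.3 to 27.1 CPM per P14 library, and Ccnb1 and Cdk1 are also on the partner list.

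Levels of other cell types moved over the same period. Of all tested genes 21.8% rose and 22.0% fell. All 3 granulocyte markers in the table fell, from a summed 40.1 to 53.1 CPM at P1 to 5.79 to 7.88 CPM at P14. Of 5 erythroid markers 4 rose, and the sums of all 5 were 390 to 798 CPM at P1 and 2190 to 2912 CPM at P14. Of 6 macrophage markers 4 rose, and the sums of all 6 were 50.7 to 54.2 CPM and 139 to 143 CPM. Adgre1 and Lyve1 did not pass, and Lyve1 was lower at P14 (12.6 ± 1.37 against 9.19 ± 1.56 CPM). The part of these cells in the change of the kinesins was not tested. The 5 endothelial markers each missed the threshold, with sums of 533 to 578 CPM at P1 and 453 to 507 CPM at P14. Of 5 fibroblast markers 1 rose, with sums of 937 to 1353 CPM and 1325 to 1855 CPM. Of 4 smooth muscle markers 2 rose and 2 fell, with sums of 1546 to 2468 CPM and 1160 to 1566 CPM, and 4 of 5 heart muscle markers rose.

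Transport kinesins had no common direction. Of 16 genes 6 rose (21.8% of all tested genes did), 2 fell (22.0% did) and 8 did not pass, and the median log2 fold change was 0.37. In 5 of them all P14 values lay above all P1 values, against 27.3% of all tested genes, and in 4 below, against 27.5%. The range, from −2.54 to 1.83, met that of the mitotic kinesins only through Kif1a: the next lowest value was −0.77. Scaled by totals alone, 3 rose and 5 fell and the median was −0.08, and with the replicate block 7 rose. Leaving out P1 replicate 3, P14 replicate 2 or P14 replicate 3 left 3 rises, so the number of rises rests on few libraries. Kifc2 and Kif13b rose, and Kif1a fell, under each of 16 alternative settings at the same threshold.

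**Figure D3:**
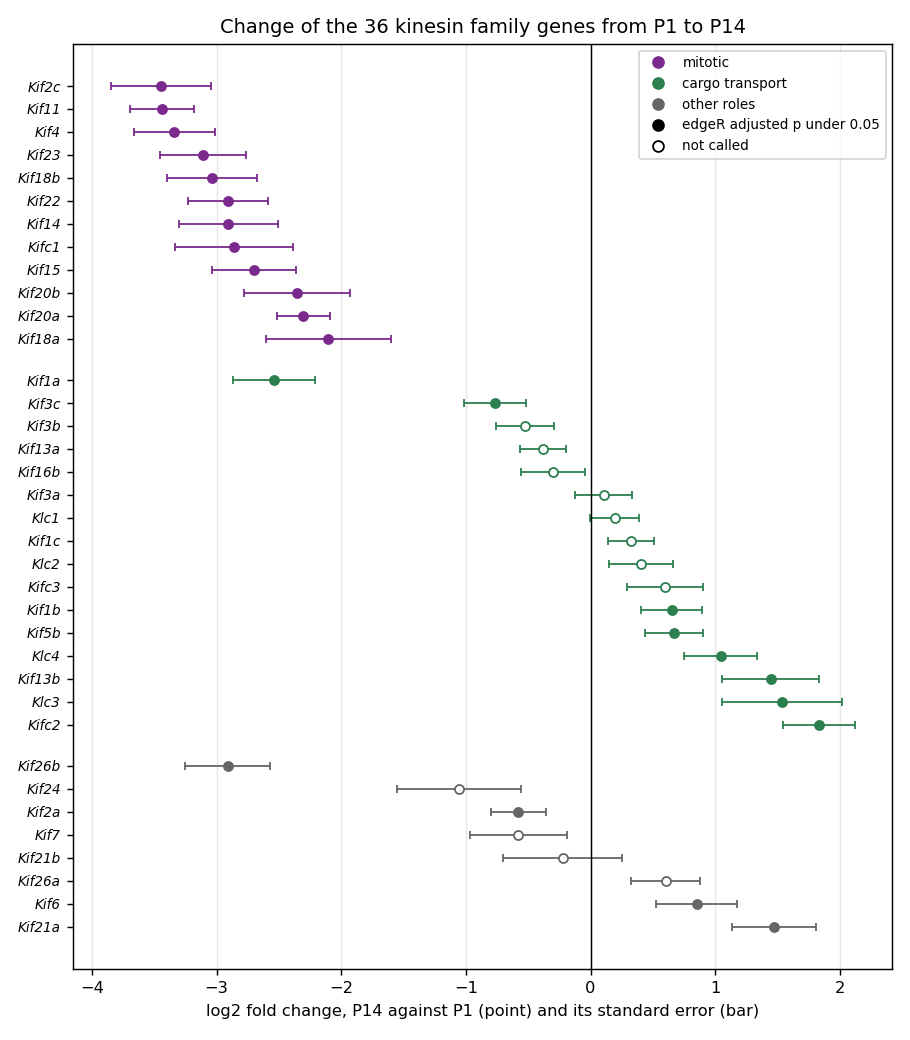
Log2 fold change of each of the 36 genes at P14 against P1 (points) with its standard error (bars), grouped by role. Filled points passed an adjusted p of 0.05 in edgeR's quasi-likelihood test. The 12 mitotic points lie between −3.45 and −2.10, and the 16 transport points between −2.54 and 1.83.

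Kinesin-1 is the main motor of organelles and messenger RNA towards the cell edge, and its ubiquitous heavy chain is Kif5b (ENSMUSG00000006740; chromosome 18). Kif5b had 50.6, 75.3 and 45.8 CPM at P1 and 70.5, 95.6 and 108 CPM at P14. P1 replicate 2 lay above P14 replicate 1, and the other P1 libraries lay below all P14 libraries. The 1.59-fold rise (log2 0.67 ± 0.23; edgeR adjusted p = 0.0305) was lost with upper quartile scaling (0.0511) and without P1 replicate 1 (0.084), P1 replicate 3 (0.12), P14 replicate 2 (0.0963) or P14 replicate 3 (0.137), and with totals alone the log2 fold change was 0.18 (0.586).

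The kinesin light chains link that motor to cargo. Klc4 (ENSMUSG00000003546; chromosome 17, 46630624 to 46646022) had 23.8, 9.15 and 16.7 CPM at P1 and 36.2, 34.9 and 31.2 CPM at P14, and rose 2.06-fold (log2 1.04 ± 0.29; edgeR adjusted p = 0.0102). Its transcripts have a GC content of 59.1%, P1 replicate 2 was its lowest library, and with totals alone its adjusted p was 0.0743. Klc1 (ENSMUSG00000021288; chromosome 12, 111758849 to 111807844) had 90.2, 64.2 and 81.3 CPM at P1 and 95.9, 91.9 and 81.5 CPM at P14, and its log2 fold change of 0.19 ± 0.20 did not pass. Klc2 (ENSMUSG00000024862; chromosome 19, 5107746 to 5118560) had 36.0, 17.8 and 31.8 CPM against 45.04, 32.9 and 34.9 CPM and did not pass either (edgeR adjusted p = 0.219). For both genes the ages overlapped, and the sign turned after correction for GC content and length, to −0.11 for Klc1 and −0.13 for Klc2, as it did with totals alone (−0.26 and −0.036). Klc3, a light chain best known from testis, was scarce, with 50, 10 and 4 counts at P1 and 38, 31 and 37 at P14. It rose from 1.19 ± 0.974 to 3.85 ± 1.07 CPM (edgeR adjusted p = 0.0194), a call lost on leaving out P14 replicate 3 (0.0732), P14 replicate 2 (0.0598) or P1 replicate 3 (0.0619) and after the GC and length correction (0.0668). Its log2 value was 1.54 ± 0.48, but 2.60 without P1 replicate 1 and 0.89 after that correction. Ercc2 overlaps 28.1% of its exon bases on the opposite strand.

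Kinesin-2 is the motor of intraflagellar and vesicle transport, built from Kif3a with Kif3b or Kif3c. Kif3a (ENSMUSG00000018395; chromosome 11, 53567379 to 53601967) had 14.1, 17.3 and 13.3 CPM at P1 and 13.0, 18.2 and 17.4 CPM at P14, and the ages overlapped (log2 0.11 ± 0.23, and −0.37 with totals alone). Kif3b (ENSMUSG00000027475; chromosome 2, 153291413 to 153333390) had 12.7, 18.3 and 17.3 CPM against 10.7, 12.5 and 10.3 CPM. All its P14 libraries lay below its P1 libraries, but its log2 fold change of −0.53 ± 0.23 missed the threshold (edgeR adjusted p = 0.0825). It passed without P1 replicate 1 (0.0457) and with totals alone (−0.99; 0.00348). Kif3c (ENSMUSG00000020668; chromosome 12, 3365132 to 3406494) had 10.3, 10.3 and 9.26 CPM at P1 and 6.33, 6.24 and 4.89 CPM at P14, and fell by 0.77 ± 0.25 on the log2 scale (edgeR adjusted p = 0.0212). That call was lost on leaving out P14 replicate 3 (0.0985), P14 replicate 2 (0.0552) or P1 replicate 1 (0.0535), and 43.3% of the exon bases of Kif3c overlap other genes on the opposite strand, chiefly 1110002L01Rik, which also fell.

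Kinesin-3 motors carry vesicles over long distances. Kif1a, the motor of synaptic vesicle precursors in axons (ENSMUSG00000014602; chromosome 1, 93015464 to 93101951), had 15.0, 14.1 and 9.60 CPM at P1 and 2.18, 1.33 and 3.22 CPM at P14. It was the one transport gene to fall by more than 2-fold: its P14 level was 5.80-fold lower (log2 −2.54 ± 0.33; edgeR adjusted p = 3.23e-05). Of the 4 neuron markers in the table Gap43 and Uchl1 fell, Dbh rose and Stmn2 did not pass, and their sums overlapped between ages, with 34.4 to 66.2 CPM at P1 and 51.6 to 72.1 CPM at P14. Of 5 Schwann cell markers 1 rose, with sums of 11.7 to 16.7 CPM and 19.5 to 26.1 CPM. Among all tested genes 21.8% rose and 22.0% fell. The part of nerve cells in the fall of Kif1a was not tested.

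Kif1b, which carries mitochondria and vesicles (ENSMUSG00000063077; chromosome 4, 149176319 to 149307693), had 52.0, 90.1 and 66.8 CPM at P1 and 76.4, 125.5 and 126.5 CPM at P14. Its P1 replicate 2 lay above its P14 replicate 1, and the 1.57-fold rise was marginal (log2 0.65 ± 0.25; edgeR adjusted p = 0.0467). It was lost in 8 of 16 alternatives, with adjusted p of 0.0594 to 0.604: limma voom, totals alone, upper quartile scaling, the stricter filter, and the removal of P1 replicate 1, P1 replicate 3, P14 replicate 2 or P14 replicate 3. Kif1c (ENSMUSG00000020821; chromosome 11, 70700548 to 70731964), a fast motor of integrin vesicles and messenger RNA, had 177, 161 and 191 CPM against 230.5, 208 and 226 CPM. The ages did not overlap, but the change of 1.25-fold did not pass (edgeR adjusted p = 0.167), and with totals alone the log2 fold change was −0.12.

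Among the larger kinesin-3 motors, Kif13a, which carries recycling endosomes and mannose-6-phosphate receptors (ENSMUSG00000021375; chromosome 13, 46749087 to 46929867), had 65.6, 79.2 and 73.4 CPM at P1 and 52.2, 55.8 and 59.8 CPM at P14. These values did not overlap, and the log2 fold change of −0.38 ± 0.18 did not pass (edgeR adjusted p = 0.108), though it did after the GC and length correction (−0.49; 0.0118) and with totals alone (−0.84; 0.00391). Its near relative Kif13b (ENSMUSG00000060012; chromosome 14, 64647265 to 64809617) had 2.73, 3.50 and 5.22 CPM against 4.71, 13.0 and 12.6 CPM. P14 replicate 1 lay within the P1 range and the other P14 libraries far above it, and Kif13b rose 2.72-fold (edgeR adjusted p = 0.00883). Kif16b, a motor of early endosomes (ENSMUSG00000038844; chromosome 2, 142617474 to 142901531), had 18.0, 31.5 and 23.9 CPM against 15.0, 22.0 and 22.9 CPM, with overlapping ages (edgeR adjusted p = 0.36). With totals alone Kif16b passed, with a log2 fold change of −0.78.

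Kifc2 and Kifc3 belong to the minus-end-directed kinesins, which run opposite to the other transport motors. Kifc2 (ENSMUSG00000004187; chromosome 15, 76659858 to 76668196) had 2.41, 1.98 and 2.02 CPM at P1 and 6.97, 9.29 and 6.95 CPM at P14. Its libraries agreed closely within each age, and it rose 3.56-fold (log2 1.83 ± 0.29; edgeR adjusted p = 0.000183). Its transcripts have a GC content of 59.5%, and after the GC and length correction the log2 value was 1.28. Kifc3, found at cell junctions and the Golgi (ENSMUSG00000031788; chromosome 8, 95099828 to 95202812), had 33.9, 12.7 and 29.6 CPM against 43.6, 36.6 and 34.4 CPM. P1 replicate 2 stood well below the other P1 libraries, and the log2 fold change of 0.60 ± 0.30 did not pass (edgeR adjusted p = 0.13). With the replicate block it passed (log2 0.69; edgeR adjusted p = 0.0108), as it did without P1 replicate 1 (0.0278).

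**Figure D4:**
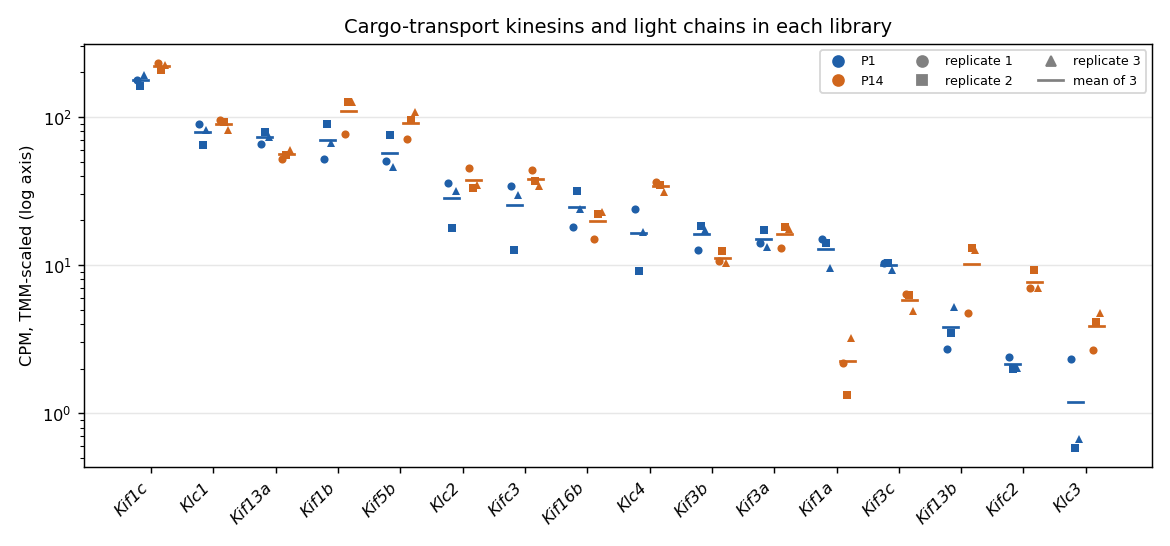
CPM of the 16 cargo-transport kinesins and light chains (log axis) in each library, P1 in blue and P14 in orange, with the replicate given by the marker and the mean of 3 libraries by a line. Kif1a drops from a mean of 12.9 to 2.24 CPM, while Kifc2 climbs from 2.14 to 7.74 CPM and most abundant genes lie close at both ages.

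Shares within classes of related subunits were compared next. Levels per kilobase of exon were compared as shares of their class, by an exact two-sided permutation test over the 6 libraries, whose smallest possible p is 0.1, so no share could pass, and 54.8% of all tested genes did not overlap between the ages. Among the light chains Klc1 held 53.1%, 65.3% and 57.2% at P1 and 46.5%, 48.2% and 46.2% at P14, and Klc4 held 24.0%, 15.9% and 20.1% against 30.1%, 31.4% and 30.2%. For both genes the ages did not overlap, P1 replicate 2 being the farthest from P14 (exact permutation p = 0.1; 0.15 adjusted over 12 shares). In kinesin-2, Kif3a went from 49.7% ± 3.10 to 61.8% ± 4.63, Kif3b from 34.1% ± 4.26 to 27.3% ± 2.41 and Kif3c from 16.2% ± 1.90 to 10.9% ± 2.25 (SD, n = 3), again without overlap. Kif1a held 4.71% ± 1.22 of the Kif1 class at P1 and 0.646% ± 0.249 at P14, while Kif1c held 81.9% ± 4.27 and 82.5% ± 4.24. Kif13b went from 3.14% ± 0.948 to 9.87% ± 3.98 of its sum with Kif13a.

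**Figure D5:**
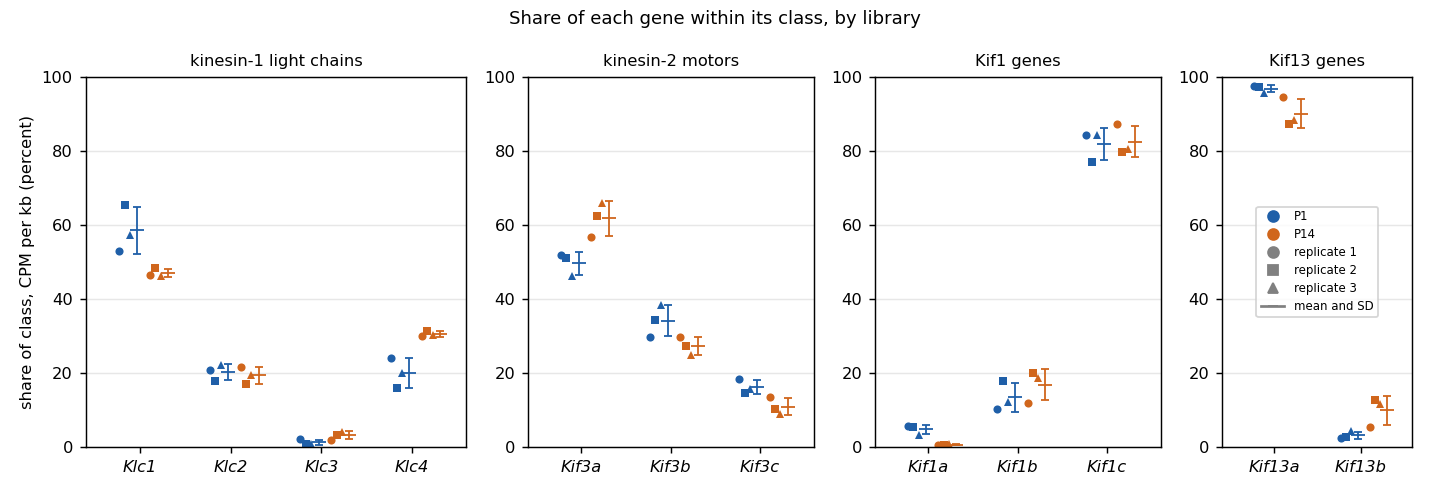
Share of each gene in its class, in percent of summed CPM per kilobase of exon, for the light chains, kinesin-2, Kif1 and Kif13 genes, with the libraries as points and the mean and SD beside them. Klc4 lies at 15.9% to 24.0% at P1 and 30.1% to 31.4% at P14, and Kif1c holds 76.9% to 87.4% of its class in every library.

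Of the adaptors and regulators of transport kinesins, 22 were tested: 9 rose, 2 fell and 11 did not pass, while 21.8% of all tested genes rose and 22.0% fell. The median log2 value of the 22 was 0.36. The microtubule protein Map7d1, whose family recruits kinesin-1, rose from 108 ± 11.6 to 387 ± 38.8 CPM. Mapk8ip3 (JIP3), a scaffold between kinesin-1 and kinases, rose from 107 ± 27.7 to 279.5 ± 33.2 CPM, and the light chain binding protein Clstn1 from 29.1 ± 10.5 to 67.9 ± 3.28 CPM. Against that direction Arl8a, a lysosomal small GTPase that recruits kinesins, fell from 26.6 ± 4.09 to 13.9 ± 0.803 CPM and Map7d3 from 2.26 ± 0.526 to 0.333 ± 0.192 CPM. Kifap3, the kinesin-2 accessory subunit, had 26.4 ± 5.29 and 29.7 ± 2.43 CPM and did not pass. Of 22 genes of dynein and dynactin, the minus-end motor of the same tracks, 3 rose, 3 fell (13.6% each way, below the 21.8% and 22.0% of all tested genes) and 16 did not pass, the median being 0.04 on the log2 scale. The light chains Dynll2 and Dynll1 moved in opposite directions. Dynll2 rose from 264 ± 65.1 to 517 ± 53.1 CPM and Dynll1 fell from 72.9 ± 6.04 to 38.5 ± 4.92 CPM. Of further light chains Dynlt3 fell (log2 −0.55 ± 0.20) and Dynlrb1 did not pass (log2 −0.13 ± 0.20). The dynein regulator Nde1 fell from 55.5 ± 5.90 to 31.7 ± 6.24 CPM.

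Of the 8 kinesins with other roles 2 rose, 2 fell and 4 did not pass, shares close to the 21.8% and 22.0% of all tested genes. Kif26b, a kinesin of Wnt5a signalling and kidney development without known motor activity (ENSMUSG00000026494; chromosome 1, 178529125 to 178939200), had 12.7, 6.94 and 10.1 CPM at P1 and 1.13, 1.20 and 1.67 CPM at P14. It fell 7.52-fold (log2 −2.91 ± 0.34; edgeR adjusted p = 1.41e-05), a size within the range of the mitotic group. Kif21a, a cortical motor that pauses microtubule growth (ENSMUSG00000022629; chromosome 15, 90933276 to 91049948), had 4.03, 7.87 and 3.54 CPM against 9.78, 18.7 and 15.7 CPM, and rose 2.77-fold (edgeR adjusted p = 0.00303). Both calls held in each of 16 alternative settings at the same threshold.

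The remaining changes in that group were marginal. Kif2a, a microtubule depolymerase of spindle and neuron (ENSMUSG00000021693; chromosome 13, 106958996 to 107022126), had 16.6, 23.6 and 19.7 CPM at P1 and 12.7, 13.8 and 13.7 CPM at P14. The fall (log2 −0.58 ± 0.22; edgeR adjusted p = 0.0464) was far smaller than that of Kif2c. It was kept in 7 of 16 alternatives and lost with DESeq2 (0.0502), limma voom (0.0526), the GC and length correction (0.147) and each left-out library except P1 replicate 1 (0.0902 to 0.113). Kif6, a motor of cilia (ENSMUSG00000023999; chromosome 17, 49615136 to 49909847), had 2.54, 1.87 and 3.37 CPM against 4.08, 5.31 and 4.25 CPM, and its rise (edgeR adjusted p = 0.0447) was kept in 7 of 15 alternatives. Only 2 ciliated cell markers were in the table, with summed levels of 1.68 to 3.32 CPM at P1 and 2.13 to 2.53 CPM at P14. Kif26a, a relative of Kif26b, had 10.9, 6.30 and 7.41 CPM against 10.3, 11.7 and 15.8 CPM. Its ages overlapped and it did not pass (log2 0.60 ± 0.28; edgeR adjusted p = 0.0901), but it did with the replicate block (0.0495) and without P1 replicate 1 (0.0257), and the sign turned to −0.092 after the GC and length correction. Kif24, which acts at centrioles, went from 2.05 ± 0.557 to 1.01 ± 0.714 CPM (edgeR adjusted p = 0.102). It passed with the replicate block (0.0271), with totals alone (0.00647) and with the block and the GC and length correction together (0.0318). Without P14 replicate 3 it passed too (0.0245, at a log2 value of −1.77). Kif7, a regulator of Hedgehog signalling, had 2.19 ± 0.478 and 1.46 ± 0.486 CPM and did not pass. It did after the GC and length correction (log2 −1.20, edgeR adjusted p = 0.0274), with or without the replicate block, and with totals alone. Kif21b, a neuronal relative of Kif21a, had 1.32 ± 0.304 and 1.09 ± 0.658 CPM and did not pass.

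By level per kilobase of exon, Kif1c was the highest member at both ages, with 24.2 ± 2.06 CPM per kilobase at P1 and 30.4 ± 1.66 at P14, followed by Klc1 with 19.3 ± 3.24 and 22.1 ± 1.83. The third was Kif20a at P1 (15.8 ± 2.08) and Klc4 at P14 (14.4 ± 1.11). Kif4 went from rank 8 to rank 22 of the 36 and Kif11 from rank 15 to rank 26, while Kif21a went from rank 24 to rank 11 and Kifc2 from rank 28 to rank 15. At P1 neither Kif1c and Klc1 nor Klc1 and Kif20a differed by more than the sum of their SDs.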

How the data were processed

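Per the labels, each library was poly(A)-selected RNA of 3 pooled hearts, sequenced for 36 cycles on a Genome Analyzer IIx. The authors deposited whole-number read counts per gene, with no normalisation visible. The submitters' processing notes name the build mm10 (GRCm38) and, with no role, bedtools and edgeR 3.2.4. Aligner, counting program and annotation: not given in the sources used here. No value column was left unused. The smallest gene total over 6 libraries was 60, so scarcer genes are not analysed here.

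Counts were tested with edgeR 4.0.16 under R 4.3.3, and as alternatives with DESeq2 1.42.0 and limma 3.58.1: filterByExpr with a minimum count of 10, TMM scaling, a robust quasi-likelihood fit with age as the only term, and Benjamini-Hochberg adjustment over all tested genes. All 36 members passed the filter. SE was taken from the log2 fold change and its F statistic. Positions, exon lengths and 36-base windows came from GENCODE M21 (GRCm38), in which all 36 members were found. Deviations from the group means of same-numbered libraries of both ages had r of 0.295, 0.112 and 0.102. Differently numbered ones had −0.214 to 0.09, so whether the numbers pair the libraries is not settled. The labels state no shared litter or day. The main fit does not pair the libraries, and replicate number was used as a block only in alternatives.

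The members, role groups, partner lists (mitotic partners, cargo adaptors, dynein and dynactin) and marker lists (heart muscle, neuron, Schwann cell, ciliated cell, erythroid, granulocyte, macrophage, endothelial, fibroblast, smooth muscle, proliferation) were chosen with earlier results of these data known. All members are named. Values in each library are given for called members among the 8 highest of a role group, for its largest and smallest changes, for calls against its main direction, and for uncalled members of at least 10 CPM. From each partner list the 3 largest called changes of at least 10 CPM and calls against the main direction are named. Named for other reasons, with values known, were Prc1, Cenpe, Kifc5b, Numa1, Kifap3, Dynlt3, Dynlrb1, the genes that overlap members and the markers. Corrections for GC content and length (splines with 4 degrees of freedom) were added after the data were seen. No pair of libraries of the same age looked like a duplicate. Chi-square per degree of freedom was 12.0 for P14 replicates 2 and 3, and 89.9 to 177.8 for the other pairs. P14 replicates 2 and 3 were thus the most alike.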

Additional observations from a re-analysis of the deposited data

How the results depend on the processing

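All 12 mitotic kinesins fell in each alternative, or 10 of the 10 tested with a filter of over 5 CPM in 3 libraries. Counts of all tested genes moved more: 5592 fell and 1620 rose with totals alone, 1640 and 1763 with a fold change tested above 1.5, and 2025 fell at an adjusted p under 0.01. Of the family 8 rose, against 4 with totals alone, 5 with upper quartile scaling or the stricter filter, and 3 with the fold or p threshold. Without 1 library 14 to 16 fell and 4 to 7 rose. Transport kinesins: 5 fell and 3 rose with totals alone, 1 fell and 2 rose with the fold or p threshold; without 1 library 1 to 2 fell and 3 to 6 rose. Other roles: 4 fell and 1 rose with totals alone, 1 fell with DESeq2 or limma voom, 1 rose with DESeq2, upper quartile scaling or the stricter filter, and 1 fell and 1 rose with the fold or p threshold; without 1 library 1 to 2 fell and 1 to 2 rose. The mitotic share of counts was 30.5% at P1 per exon length, and 25.4% to 26.6% at P1 and 3.27% to 4.45% at P14 without 1 library. Signs turned with totals alone for Kif1c (−0.12), Kif3a (−0.37), Klc1 (−0.26) and Klc2 (−0.036), after the GC and length correction for Kif26a (−0.092), Klc1 (−0.11) and Klc2 (−0.13), with that correction and the replicate block for Kif26a (−0.10), Klc1 (−0.11) and Klc2 (−0.14), and for Kif21b without P1 replicate 1 (0.018) or P14 replicate 3 (0.13), within −0.76 to 0.13 over left-out libraries. The causes were not tested. The replicate block added calls for Kif24, Kif26a and Kifc3 and changed no other member's call, giving 17 falls and 10 rises in the family, or 18 and 7 with the GC and length correction. Members near 1 CPM at P14 rest on few reads.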

Other observations

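One kinesin gene stands in the table under an older symbol, Gm1305, named Kif28 in GENCODE M21, and so lies outside the naming rule. It had 1, 5 and 2 counts at P1 and 38, 11 and 15 at P14, or 0.225 ± 0.156 and 2.02 ± 0.612 CPM (SD, n = 3). On the log2 scale the rise was 3.41 ± 0.59 (SE; edgeR adjusted p = 0.00038). The kinesin-1 cargo adaptor Sybu (syntabulin), known from axonal transport of mitochondria, had the largest log2 fold change among the adaptors, rising from 0.623 ± 0.257 to 7.57 ± 0.588 CPM (3.44 ± 0.35). Both genes are scarce and were singled out after their values were seen. Kif1bp, deposited as 2510003E04Rik and a binding partner of Kif1b and other kinesins, had 25.1 ± 2.87 and 20.9 ± 3.55 CPM and did not pass (edgeR adjusted p = 0.336).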
